A study of Homo sapiens with 6 samples.

Results

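Single-exon intergenic lncRNAs are long noncoding RNA genes that overlap no protein-coding gene on either strand and whose counted transcript is 1 unspliced exon. Genes of 4 kinds were left out by symbol, namely divergent transcripts ending in -DT, snoRNA hosts starting with SNHG, genes starting with MIR, and the well-known MALAT1, NEAT1, NORAD and KCNQ1OT1. By this rule 494 of 37024 genes matched to GENCODE were members, from 1073 lncRNA transcripts with 1 exon, of which 553 were intergenic and 59 of those were left out by symbol. All libraries came from untreated K562 cells, an established human erythroleukemia line from a chronic myelogenous leukemia. There were 4 total RNA-seq libraries, made after rRNA depletion, and 2 PRO-seq libraries. The study used the ratio of these assays as a relative measure of RNA half-life, so the question asked of each member was how much RNA it had for its transcription. The study cautions that PRO-seq counts engaged polymerases, so a high level can mean more transcription or slower elongation. After trying corrections, it judged that the effect of elongation rate appeared limited. No correction for elongation rate was made here.

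PRO-seq maps RNA polymerases that are engaged in transcription, and RNA-seq measures the RNA that has accumulated. Splicing and a poly-A tail both aid export and protect RNA, and transcripts that lack introns or end early are known as substrates of the nuclear exosome, which is brought to them by the NEXT complex and by the poly-A tail exosome targeting connection (PAXT). Most intergenic lncRNAs are expressed at low levels and in few cell types, and few of those without introns have a known function.

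The libraries held between 5732780 and 9002746 counts on transcription units (TUs) in RNA-seq, and 6993816 and 7245632 in PRO-seq. Members held between 0.0724% and 0.0775% of the RNA-seq counts and 0.0814% and 0.0834% of the PRO-seq counts. The cell line was checked by its markers. All 10 erythroid markers were over 1 TPM in RNA-seq, where TPM is a count corrected for length and for library total, with a summed level between 11942 and 12837 TPM in the 4 libraries. Of 12 listed markers of T cells, B cells, hepatocytes, fibroblasts, epithelia and monocytes, 4 were over 1 TPM (LYZ at 334 TPM, EPCAM at 120 TPM, CD3D at 109 TPM and COL1A2 at 1.36 TPM), none was at 0 in RNA-seq, and their summed level was between 561 and 574 TPM. Their part in the results was not tested. In bulk libraries, fewer cells with a TU switched on and less RNA per cell cannot be told apart.

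The 3′ ends of members are shown first, because an unspliced transcript carries few other processing signals. The lines give the last 50 bases of the members with the 6 highest and the 6 lowest called half-lives among those that passed the test described below, read by transcript identifier from GENCODE, with coordinates and strand on GRCh38. Capitals mark AATAAA or ATTAAA, the usual hexamers upstream of a poly-A site.
HCG11, chr6:26527355-26527404, plus strand: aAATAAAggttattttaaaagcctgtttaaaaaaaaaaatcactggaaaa
ENSG00000272335, chr5:44828543-44828592, plus strand: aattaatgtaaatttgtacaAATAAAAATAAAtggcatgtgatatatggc
LINC01311, chr22:19172802-19172851, plus strand: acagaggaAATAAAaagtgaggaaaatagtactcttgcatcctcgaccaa
ENSG00000260912, chr9:19455124-19455173, plus strand: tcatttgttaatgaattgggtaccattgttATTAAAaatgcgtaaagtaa
ENSG00000261211, chr6:6680309-6680358, minus strand: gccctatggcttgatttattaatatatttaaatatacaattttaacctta
LINC00896, chr22:20208475-20208524, plus strand: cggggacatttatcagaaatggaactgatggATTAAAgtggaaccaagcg
ENSG00000273329, chr7:129604548-129604597, minus strand: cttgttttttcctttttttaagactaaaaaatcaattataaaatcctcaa
ENSG00000290791, chr1:149846437-149846486, plus strand: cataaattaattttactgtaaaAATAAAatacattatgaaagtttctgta
ENSG00000272077, chr3:44669315-44669364, plus strand: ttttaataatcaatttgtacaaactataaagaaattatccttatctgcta
LINC02809, chr1:228073909-228073958, minus strand: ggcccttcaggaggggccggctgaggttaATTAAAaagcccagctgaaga
ENSG00000276728, chr17:45146726-45146775, minus strand: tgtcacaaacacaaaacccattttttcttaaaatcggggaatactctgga
BCAN-AS1, chr1:156637783-156637832, minus strand: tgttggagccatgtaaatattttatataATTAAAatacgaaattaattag

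Among the first 6 lines ENSG00000261211 alone lacked both hexamers, whereas among the last 6 lines ENSG00000273329, ENSG00000272077 and ENSG00000276728 lacked them. The hexamer nearest the end started 49 bases from it in HCG11 and 42 in LINC01311. In the other lines with a hexamer it started between 19 and 28 bases from the end. Over all members, 338 of 494 (68.4%) had a hexamer in this window, beside 42.9% of intergenic lncRNA transcripts with 2 exons and 47.7% of those with 3 or more exons. The share was 61.3% in 1-exon mRNAs, 70.6% in all mRNAs and 53.4% in all TUs. Members with a hexamer had a median log2 half-life of -3.44 (n = 54, quartiles -4.77 and -2.35), and members without had -4.44 (n = 27, quartiles -5.36 and -3.15), where 0 is the median mRNA. The quartiles of the groups overlapped, and no test was made across members. The transcripts' GC content had a median of 44.8% in members and 49.6% in mRNAs. It was 45.9% and 45.8% in intergenic lncRNAs with 2 and with 3 or more exons, so a lower GC content is not particular to members. Spearman's rho between GC content and log2 half-life was -0.04 over 81 members.

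RefSeq gave a promoter, from 250 bases before to 50 bases after the gene's start on GRCh38.p14, for 50 of the 494 members by symbol. Those of HCG11 and LINC01003, the only named members with one, are shown because both were among the members with the most RNA and their promoters differ in base composition. On either strand, capitals mark the CCAAT box, the TATAAA box and, as letters bound by GATA factors, AGATAA and also TGATAA.
HCG11, chr6:26521456-26521755, plus strand: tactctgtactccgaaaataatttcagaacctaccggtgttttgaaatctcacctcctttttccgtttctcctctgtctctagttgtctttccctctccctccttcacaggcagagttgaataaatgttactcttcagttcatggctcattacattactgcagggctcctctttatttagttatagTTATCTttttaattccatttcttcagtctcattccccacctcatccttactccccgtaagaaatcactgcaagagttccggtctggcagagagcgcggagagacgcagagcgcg
LINC01003, chr7:152463874-152464173, plus strand: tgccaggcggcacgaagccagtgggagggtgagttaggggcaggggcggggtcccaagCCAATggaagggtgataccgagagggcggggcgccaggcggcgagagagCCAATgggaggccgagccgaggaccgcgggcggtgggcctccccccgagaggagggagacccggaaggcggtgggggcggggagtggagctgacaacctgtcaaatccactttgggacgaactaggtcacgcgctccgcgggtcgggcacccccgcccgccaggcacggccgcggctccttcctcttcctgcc

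The RefSeq start of LINC01003 lay 338 bp inside the counted transcript, so this window is not upstream of it, whereas that of HCG11 lay within 3 bp of the counted start. CCAAT was present in 20 of the 50 promoters (40%) and in 34.6% of 35116 promoters in the table. TATAAA was present in 16% of the 50 and 11.5% of all, and AGATAA or TGATAA in 20% and 16.3%. A match of letters is a description and not a site of binding.

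Many members had no count. Over the summed libraries, 217 of 494 members had counts in both assays, 130 in RNA-seq alone, 25 in PRO-seq alone and 122 in neither. In single libraries between 230 and 257 members had an RNA-seq count, and 204 and 216 had a PRO-seq count. A count in RNA-seq was found for 70.2% of members, beside 68.2% of all TUs. It was found for 36.7% of intergenic lncRNAs with 2 exons and 46.2% of those with 3 or more exons. The RNA-seq share was 67.2% in 1-exon mRNAs and 85.0% in all mRNAs. A count in PRO-seq was found for 49.0% of members, beside 73.2% of all TUs. In the other classes, in the same order, the PRO-seq share was 53.5%, 77.6%, 40.1% and 88.0%. A few members held much of the signal, since the top 10 in each assay had 42.8% of the members' RNA-seq counts and 48.2% of their PRO-seq counts.

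Detection went with the distance from coding genes. Of 44 members that start within 1 kb of a coding gene's start and point away from it, 40 had RNA-seq counts and 35 had PRO-seq counts. Of 57 members within 5 kb downstream of a coding gene on the same strand, 52 and 46 had them, and of 21 within 5 kb upstream, 19 and 12. Of 151 members more than 50 kb from any coding gene, 89 (58.9%) had RNA-seq counts and 40 (26.5%) had PRO-seq counts. These shares keep members whose PRO-seq window lies inside another TU on the same strand, which had no PRO-seq count (described below). The far group holds such members, among them ENSG00000278266 and ENSG00000271533, so its PRO-seq share does not reflect distance alone. PRO-seq counts of divergent and downstream members also went with the neighbour's own PRO-seq level. Where the coding neighbour was over 10 TPM in PRO-seq, 29 of 30 divergent members and 38 of 39 downstream members had PRO-seq counts. Where it was not, 5 of 13 and 7 of 16 had them. For upstream members the difference was smaller, at 7 of 10 against 5 of 11.

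**Figure D1:**
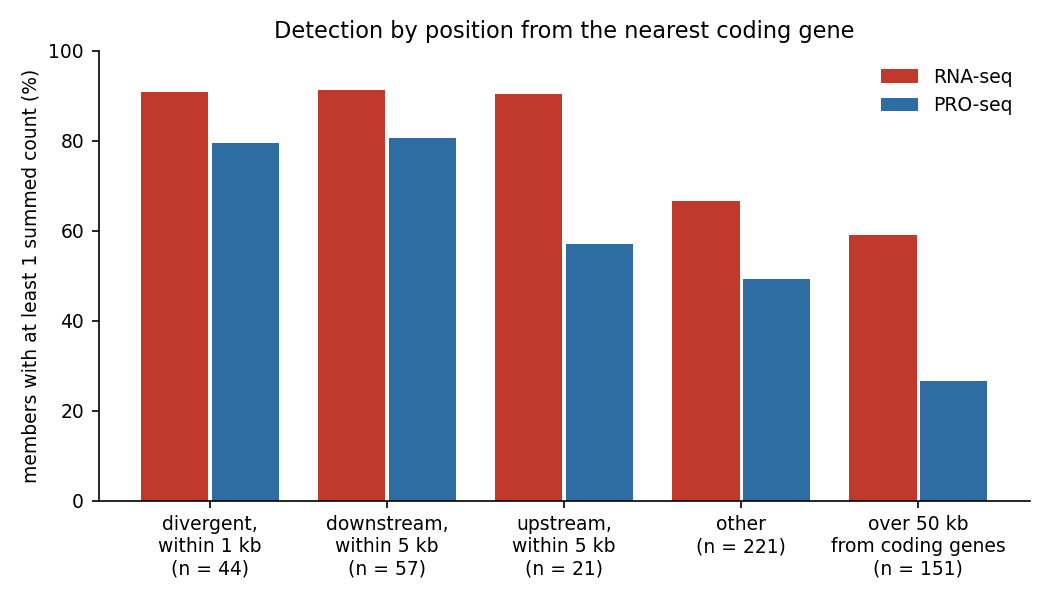
Percentage of single-exon intergenic lncRNAs with at least 1 summed count in RNA-seq (red, 4 libraries) and PRO-seq (blue, 2 libraries), by position from the nearest protein-coding gene, with the number of members under each pair of bars. Members over 50 kb from coding genes had the lowest share in both assays (58.9% and 26.5%). Members whose PRO-seq window lies inside another TU on the same strand are included.

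Zeros in PRO-seq went with overlap between TUs. All 38 members whose whole PRO-seq window lay inside another listed TU on the same strand had no PRO-seq count, although 29 of them had RNA-seq counts and 11 had at least 20. Of the 5 members with at least 20 RNA-seq counts whose window lay inside a TU on the other strand alone, all 5 had PRO-seq counts. Over all TUs, 26 of 2530 windows inside a same-strand TU had counts (1.03%), and 2686 of 4604 inside a TU on the other strand alone (58.3%). Of such members, 3 are named here after their values were seen. ENSG00000278266 had 498 RNA-seq counts and ENSG00000271533, which overlaps the lncRNA gene FTX, had 159, and neither had a PRO-seq count. LINC00526 had 171 RNA-seq counts and no PRO-seq count, with 91.8% of its window inside another TU. Whether such members were transcribed cannot be told from these counts, and they have no half-life estimate.

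A relative half-life, the ratio of RNA-seq to PRO-seq TPM, was estimated for TUs past the study's thresholds, which are 10 TPM in PRO-seq together with 1 TPM in RNA-seq. It is given as log2, with the median mRNA at 0, where the ratio itself was 0.628. Of the 494 members, 144 were over 10 TPM in PRO-seq and 81 of these also over 1 TPM in RNA-seq (56.2%), beside 47.0% of the 181 intergenic lncRNAs with 2 exons, 68.6% of the 334 with 3 or more exons and 87.5% of the 144 1-exon mRNAs that passed in PRO-seq. The 81 ranged from 10.4 to 670 TPM in PRO-seq and from 1.01 to 51.5 TPM in RNA-seq. In counts, they had between 2 and 1272 in PRO-seq and between 16 and 2497 in RNA-seq, and 11 had fewer than 10 PRO-seq counts.

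Single-exon intergenic lncRNAs past both thresholds had little RNA for their PRO-seq level. Their median log2 half-life was -3.75 (n = 81, quartiles -5.22 and -2.54), that is 13.5-fold below the median mRNA, and all 81 estimates were under 0. The median was -3.12 in intergenic lncRNAs with 2 exons (n = 85), -1.82 in those with 3 or more exons (n = 229), -1.69 in 1-exon mRNAs (n = 126) and -0.25 over all 10079 TUs. PRO-seq levels were alike, with a median of 77.3 TPM in members and 83.5 TPM in 1-exon mRNAs with an estimate. Their median RNA-seq TPM was 3.14 and 19.0. In the 8 pairings of 1 RNA-seq with 1 PRO-seq library the members' median lay between -3.99 and -3.51. The median replicate SD of the log2 ratio was 0.42 in 78 members with counts in every library and 0.13 in mRNAs.

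**Figure D2:**
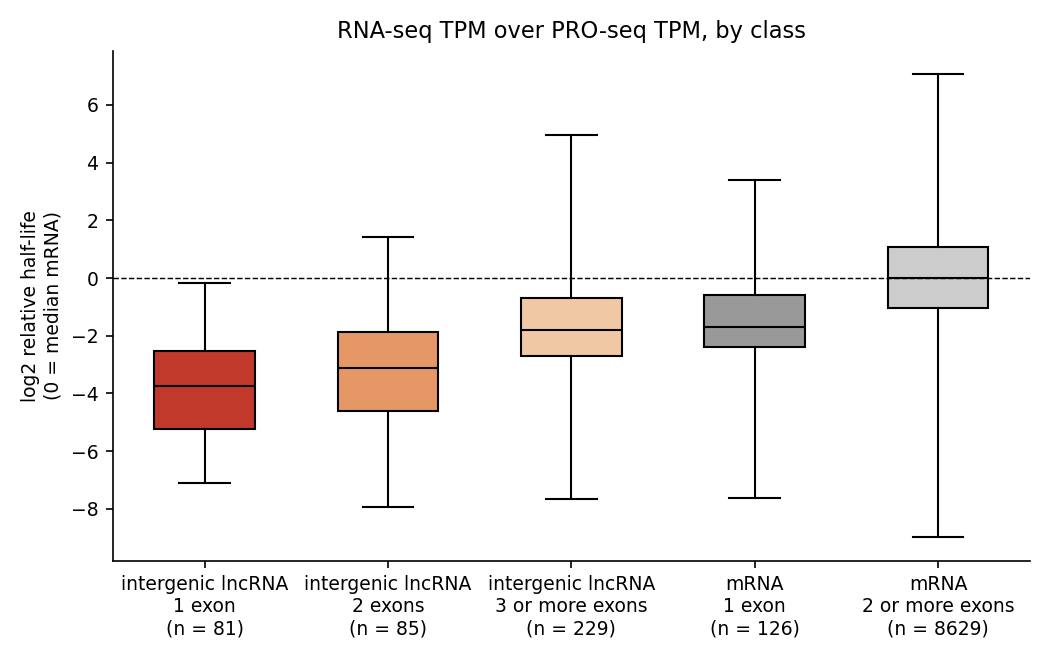
Log2 relative half-life (ratio of RNA-seq to PRO-seq TPM, median mRNA at 0) by class, for TUs past both thresholds. Lines in boxes are medians, boxes span the quartiles and whiskers the full range, and the whole range of the 81 single-exon intergenic lncRNAs lies under 0.

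Each TU was tested against the median mRNA with edgeR's quasi-likelihood test on counts, with offsets for length and Benjamini-Hochberg adjustment over 10079 TUs. Of 81 members, 76 were below the median mRNA at an adjusted p under 0.05, beside 50.4% of all TUs tested. None was above, beside 39.9% of all TUs, and none was above at an unadjusted p under 0.05 or with DESeq2, which called 78 below. Among 1-exon mRNAs 73.8% of 126 were below and 5.56% above, and among intergenic lncRNAs with 2 exons 89.4% of 85 were below and 3.53% above. Without the TPM thresholds, at 1 summed count in each assay, 166 of 216 members were below, where 37.3% of 21043 TUs were below. The difference between classes was not tested, since TUs are not replicates.

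The thresholds kept 63 members out that were over 10 TPM in PRO-seq and at most 1 TPM in RNA-seq, and 59 of them had RNA-seq counts. They also kept out 14 members over 1 TPM in RNA-seq and at most 10 TPM in PRO-seq, of which 4 had PRO-seq counts and 8 shared their window with a same-strand TU. Of these 4, ENSG00000260464, LINC01560 and ENSG00000278730 had log2 ratios above the median mRNA (0.85, 0.53 and 0.02), from 1, 1 and 6 PRO-seq counts. LCDR was at -0.27 from 2 PRO-seq counts. At 1 summed count in each assay, none of the 4 was called above or below. The thresholds thus leave out members with RNA and little PRO-seq signal.

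The value rests on the length correction. In a single-exon TU both assays are counted on the same exon, whereas a spliced mRNA has a long span for PRO-seq and short exons for RNA-seq. With counts divided by library total alone (CPM) and no length, the members' median turned to 0.68 above the median mRNA. Members and 1-exon mRNAs in one range of spans can also be set side by side in raw counts. Both sets were still chosen by the length-corrected thresholds, and spans were not matched within the range, so the comparison is not free of length. Members with a span over 1000 and up to 5000 bp had a median of 3.23 RNA-seq counts per PRO-seq count (n = 70), and 1-exon mRNAs of that span had 10.8 (n = 105). With the correction, their median log2 half-lives were -3.72 and -1.63. Where 1000 bp or more remained for PRO-seq, 48 of 49 members were below, with a median of -3.52.

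**Figure D3:**
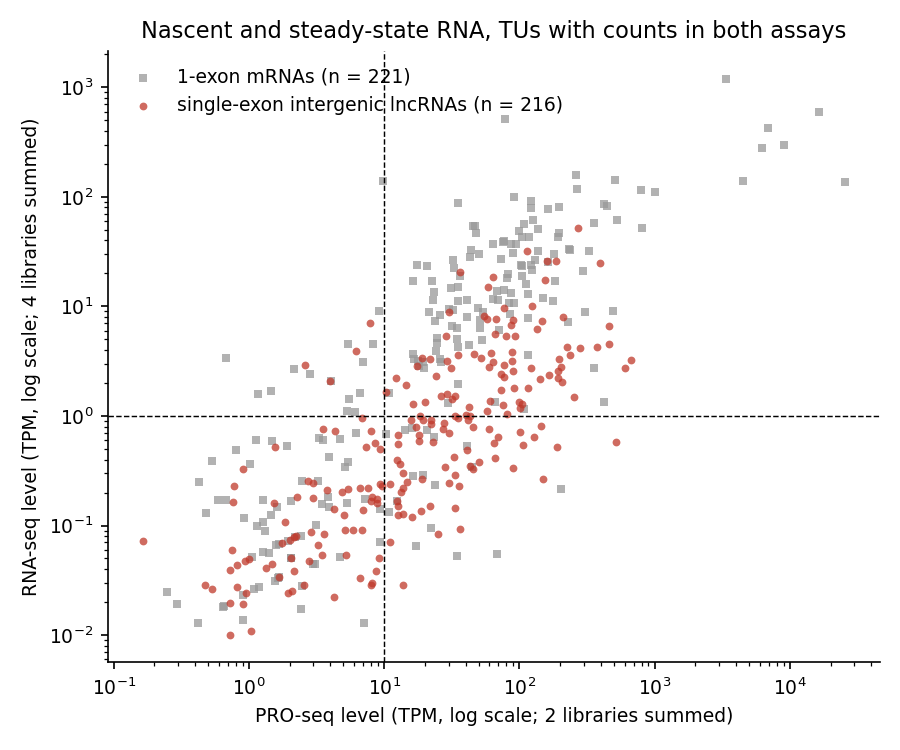
RNA-seq against PRO-seq level (TPM, both axes logarithmic) of 216 single-exon intergenic lncRNAs (red circles) and 221 1-exon mRNAs (grey squares) with counts in both assays. Dashed lines mark the thresholds, 10 TPM on the horizontal and 1 TPM on the vertical axis, and past both of them the median RNA-seq level was 3.14 TPM for red circles and 19.0 TPM for grey squares.

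Across members, RNA-seq and PRO-seq levels went together. Spearman's rho between PRO-seq TPM and RNA-seq TPM was 0.77 over 216 members with counts in both assays and 0.49 over the 98 with at least 10 counts in each, beside 0.83 over 221 1-exon mRNAs. The points share libraries, and TPM in both assays is divided by lengths taken from one span.

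The members with the most RNA were LINC01311, HCG11, LINC01003, ENSG00000263731, ENSG00000261526, ENSG00000260257, ENSG00000259865 and ENSG00000268205. For named members, the log2 half-life with its SE and p is that of the edgeR fit, and for neighbours it is the ratio of TPM. LINC01311 (chr22:19171395-19172851) was at 48.7, 56.2, 52.8 and 47.4 TPM in RNA-seq replicates 1 to 4, the highest of any member, and at 280 and 265 TPM in PRO-seq. Its log2 half-life was -1.73 (SE 0.22, adjusted p = 2.02e-08 by edgeR). Every PRO-seq value lay above every RNA-seq value, though the ratio of RNA-seq to PRO-seq TPM at the median mRNA was itself 0.628. The length taken off for PRO-seq weighs on short members such as this, and with 500 bp removed in place of 1000 bp LINC01311 was at -0.71 (adjusted p = 0.00192 by edgeR).

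HCG11 (HLA complex group 11, chr6:26521709-26527404) was at 33.2, 32.6, 29.0 and 33.3 TPM in RNA-seq and at 127 and 101 TPM in PRO-seq. It had more RNA-seq counts than any other member (2497) and a log2 half-life of -1.14 (SE 0.11, adjusted p = 1.13e-10 by edgeR). Tested against a 2-fold difference, that call was lost (adjusted p = 0.0572).

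LINC01003 (chr7:152463786-152465549) was at 26.4, 24.0, 29.3 and 24.2 TPM in RNA-seq and at 146 and 225 TPM in PRO-seq, with a log2 half-life of -2.17 (SE 0.23, adjusted p = 3.41e-10 by edgeR). ENSG00000263731, which lies 6729 bp from ALYREF, an mRNA export factor gene, was at 25.0, 27.1, 24.7 and 25.6 TPM in RNA-seq and 145 and 176 TPM in PRO-seq. ENSG00000268205, 10236 bp from the zinc finger gene ZNF460, was at 17.1, 17.6, 17.3 and 17.3 TPM in RNA-seq and 151 and 157 TPM in PRO-seq. The RNA-seq libraries agree closely for these 3 members, and their half-lives of -2.17, -1.97 and -2.47 were all called below the median mRNA. With 500 bp removed LINC01003 was at -1.49, and still called.

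ENSG00000260257 and ENSG00000259865 had the highest estimates of all named members and were not called. ENSG00000260257, 172 bp upstream of EFCAB8, was at 20.5, 21.7, 19.2 and 20.1 TPM in RNA-seq, and at 14.1 and 58.6 TPM in PRO-seq from 4 and 17 counts. Its log2 half-life was -0.16 (SE 0.36, adjusted p = 0.666 by edgeR), and without PRO-seq replicate 2 it was 1.20 while without replicate 1 it was -0.83. The PRO-seq libraries thus lay on either side of the RNA-seq values. ENSG00000259865 was at 18.8, 16.0, 17.8 and 22.0 TPM in RNA-seq and 81.1 and 47.6 TPM in PRO-seq, from 5 and 3 counts, with a log2 half-life of -1.12 (SE 0.59, adjusted p = 0.0733 by edgeR). With 500 bp removed both estimates turned positive, to 0.32 and 0.44. The other 3 members not called, ENSG00000261798, ENSG00000250874 and ENSG00000271780, had 2, 4 and 4 PRO-seq counts.

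The remaining members with the highest called half-lives were ENSG00000272335, ENSG00000260912, ENSG00000261211 and LINC00896. ENSG00000272335, 5648 bp from the mitochondrial ribosomal protein gene MRPS30, was at 13.1, 15.5, 16.7 and 15.3 TPM in RNA-seq and 57.9 and 59.1 TPM in PRO-seq, with a log2 half-life of -1.29 (SE 0.25, adjusted p = 2.67e-05 by edgeR). Tested against a 2-fold difference, that call was lost (adjusted p = 0.0712). The other 3 had lower levels in both assays, between 2.13 and 5.95 TPM in RNA-seq and between 12.0 and 37.2 TPM in PRO-seq, and log2 half-lives of -1.75, -1.79 and -1.80. ENSG00000260912 was no longer called without PRO-seq replicate 1 (adjusted p = 0.111 by edgeR), nor LINC00896 without PRO-seq replicate 2 (adjusted p = 0.145 by edgeR) or with TUs at 1 summed count (adjusted p = 0.0612 by edgeR). ENSG00000261211 is a gene with a spliced transcript in the annotation, as are 26 of the 494.

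Of the members with at least 20 PRO-seq counts, the 8 highest in PRO-seq TPM all lay close to coding genes. Of these, 5 were divergent and 3 downstream. ENSG00000276728 (chr17:45146726-45148470) starts 5 bp from HEXIM1, which encodes an inhibitor of the elongation kinase P-TEFb, and points away from it. It was at 627 and 712 TPM in PRO-seq, the highest of any member with at least 20 PRO-seq counts, and at 3.39, 4.47, 2.41 and 2.10 TPM in RNA-seq. Its log2 half-life was -7.00 (SE 0.20, adjusted p = 1.91e-24 by edgeR). HEXIM1 itself was at 104 TPM in PRO-seq with a log2 half-life of -1.47.

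BCAN-AS1 (chr1:156637783-156641004) starts 386 bp from BCAN, which encodes the brain proteoglycan brevican, on the other strand. It was at 611 and 593 TPM in PRO-seq and at 1.84, 3.48, 2.85 and 2.90 TPM in RNA-seq, and had the lowest log2 half-life of any member with an estimate, -7.08 (SE 0.13, adjusted p = 2.92e-29 by edgeR). BCAN was at 0.24 TPM in PRO-seq. Here the lncRNA was the transcribed side of the pair, whereas ENSG00000276728 had a transcribed coding partner.

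ENSG00000273329 (chr7:129604548-129611671) starts 49 bp from NRF1, the gene of a factor for nuclear genes of mitochondria. It was at 361 and 387 TPM in PRO-seq, from 554 and 608 counts, and at 3.97, 4.55, 4.14 and 4.36 TPM in RNA-seq, so its log2 half-life of -5.78 had a small error (SE 0.08, adjusted p = 7.66e-32 by edgeR). NRF1 was at 40.8 TPM in PRO-seq. ENSG00000270019, 296 bp from the actin nucleation gene ACTR3, was at 297 and 262 TPM in PRO-seq and 5.26, 2.80, 5.14 and 3.63 TPM in RNA-seq, with a log2 half-life of -5.39 (SE 0.29, adjusted p = 5.44e-17 by edgeR), or -4.52 with 500 bp removed.

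ENSG00000290792 and ENSG00000290791 overlap each other on opposite strands in the histone gene cluster of chromosome 1. ENSG00000290792, 124 bp from H2AC19, was at 438 and 484 TPM in PRO-seq, from 597 and 675 counts, the most of any member, and at 5.79, 7.08, 5.53 and 7.93 TPM in RNA-seq. ENSG00000290791, 3108 bp downstream of H4C14, was at 452 and 470 TPM in PRO-seq and 4.34, 3.51, 4.77 and 6.01 TPM in RNA-seq. Their log2 half-lives were -5.45 (SE 0.09) and -5.98 (SE 0.13), with adjusted p of 2.45e-30 and 9.44e-28 by edgeR. Reads from near-identical histone copies could not be told apart here, and H4C14 itself was at 201 TPM in PRO-seq with a log2 half-life of -4.05.

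LINC02809 was at 246 and 257 TPM in PRO-seq and at 1.27, 1.85, 1.30 and 1.39 TPM in RNA-seq, and ENSG00000272077 was at 172 and 241 TPM and at 2.11, 2.25, 2.16 and 1.54 TPM. Their log2 half-lives were -6.72 (SE 0.20) and -5.98 (SE 0.27), with adjusted p of 8.48e-24 and 4.94e-19 by edgeR. The whole PRO-seq window of ENSG00000272077 lies inside a TU on the other strand.

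Members just past coding genes included ENSG00000261526, 606 bp downstream of ABHD17A, a depalmitoylase gene. It was among the highest in both assays, at 301 and 487 TPM in PRO-seq and 23.2, 25.7, 28.3 and 24.1 TPM in RNA-seq, with a log2 half-life of -3.30 (SE 0.19, adjusted p = 3.29e-16 by edgeR), or -2.55 with 500 bp removed, and ABHD17A was at 47.0 TPM in PRO-seq. ENSG00000260368, 2135 bp downstream of the 14-3-3 gene YWHAZ, was at 450 and 577 TPM in PRO-seq, from 16 and 21 counts on a window of 142 bp, and at 0.68, 0.85, 0.34 and 0.29 TPM in RNA-seq. It fell under the RNA-seq threshold and has no estimate.

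Of the members over 10 TPM in PRO-seq, 4 had no RNA-seq count in any library, which allows up to 3 counts over the 4 libraries, a floor that covers counting error only. ENSG00000261584 was at 71.7 and 86.2 TPM in PRO-seq, from 13 and 16 counts. At a floor of 0.128 TPM in RNA-seq and the lower of its PRO-seq levels, its half-life was at least 351-fold lower than that of the median mRNA. ENSG00000261541, 198680 bp from TP53TG3D of a multicopy family, had 8 and 11 PRO-seq counts and by the same reckoning was at least 119.7-fold lower. ENSG00000258729, downstream of ATG2B, had 5 and 2 PRO-seq counts. ENSG00000269446 had 1 PRO-seq count on a window of 93 bp, and for both the counts are too few for a fold.

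Position from coding genes went with the estimates as follows. The median log2 half-life was -4.99 in 19 downstream members (quartiles -5.34 and -3.53), -3.90 in 22 divergent members (quartiles -4.80 and -3.22), -4.25 in 4 upstream members, -2.80 in 4 members over 50 kb from coding genes and -2.72 in the 32 others (quartiles -4.65 and -2.05). The ranges of all these groups overlapped, and no test was made across members. The median PRO-seq TPM of these members was 90.6 downstream, 78.0 divergent, 85.3 upstream, 25.3 far and 69.7 in the others. Whether PRO-seq counts of downstream members came from the member or from the coding gene on the same strand was not tested. Of the downstream members 19 of 19 were called below the median mRNA, of the divergent 21 of 22, of the upstream 3 of 4, of the far 3 of 4 and of the others 30 of 32, beside the 50.4% of all TUs. In PRO-seq, members with counts whose coding neighbour was over 10 TPM had a median log2 ratio to that neighbour's TPM of 0.66 when downstream (n = 38), -0.58 when divergent (n = 29) and -0.97 when upstream (n = 7), so members with no count do not enter these medians.

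By symbol, the median was -3.61 in 14 members with a LINC symbol, -3.27 in 7 with another symbol and -3.79 in 60 known only by an identifier. It was -3.69 in 18 members that overlap another annotated gene and -3.77 in 63 that do not. It was -2.54 in 5 members whose gene also has a spliced transcript and -3.78 in 76 without one, and -4.87 in 2 members whose whole PRO-seq window lies inside a TU on the other strand and -3.69 in 75 with no other TU in the window. These splits were not tested. By span it was -4.32 up to 2000 bp (n = 32), -3.44 above that and up to 5000 bp (n = 38), and -3.87 over 5000 bp (n = 11). Spearman's rho with log2 half-life over 81 members was 0.07 for span and -0.595 for PRO-seq TPM. PRO-seq TPM is the denominator of the half-life, so the second value is not free of that shared term.

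Most of the listed genes of nuclear RNA turnover were themselves expressed. Of 29 listed genes of NEXT, PAXT, the cap-binding complex, Integrator, the restrictor and the exosome, 28 were over 1 TPM in RNA-seq. The median of the 29 was 67.1 TPM. RBM7 of NEXT was not over 1 TPM, at 0.64 TPM from 6 RNA-seq counts and 1 PRO-seq count. Whether reads of RBM7 were lost to overlapping TUs or to other transcripts was not tested. Of 27 tested by edgeR, 16 were above the median mRNA and 10 below, beside 39.9% above and 50.4% below of all TUs. The helicase gene MTREX, shared by NEXT and PAXT, was at 255 TPM in RNA-seq, while ZCCHC8 of NEXT was at 18.0 TPM, ZFC3H1 of PAXT at 18.4 TPM and ZC3H4 of the restrictor at 20.4 TPM.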

How the data were processed

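From K562 cells, 4 RNA-seq and 2 PRO-seq libraries were made, and the authors deposited raw counts per transcript. Per the submitters' processing notes and the methods, cutadapt, HISAT2 (GRCh38) and HTSeq were used, and PRO-seq reads in the outer 500 bp on either side were not counted. Their versions, and how strand was set, are not stated there. Reads assigned to no TU (66.5% to 68.6% of RNA-seq records, 86.5% and 88.6% of PRO-seq records) were left out.

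Of 42371 transcripts, 37168 (87.7%) were matched by identifier to GENCODE 44 with GRCh38 locations, which gave lengths and positions. The authors' lengths may differ, since 24 of 85 TUs with a span up to 1000 bp had PRO-seq counts. Unmatched transcripts held 3.74% to 3.80% of RNA-seq counts and 2.99% and 3.01% of PRO-seq counts. Of the members' transcripts, 489 were typed lncRNA and 5 retained intron.

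TPM used counts summed per assay, exon length for RNA-seq and span minus 1000 bp for PRO-seq. Short windows weigh on the PRO-seq scale, as 763 TUs with a window under 100 bp held 5.27% of PRO-seq TPM. The test was edgeR 4.0.16 (R 4.3.3, quasi-likelihood, TMM, length offsets, centred on the median mRNA), with DESeq2 1.42.0 as an alternative, and both assays were compared over all libraries. Per the methods all libraries came from one flask of cells, so they are not separate cultures, and p-values measure only the spread between these libraries, which may be technical. The fit was run on simulated counts with the same variation beyond counting noise in all TUs. Its error rate for members was not measured. Other steps used Python 3.11.15.

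Named members were the 8 highest in RNA-seq TPM, the 8 highest in PRO-seq TPM with at least 20 PRO-seq counts, the 6 highest and 6 lowest called half-lives with at least 10 counts in each assay and the same side in replicates 1 and in replicates 2, and the 4 with the most PRO-seq counts among those over 10 TPM in PRO-seq and without an RNA-seq count. The members, lists and tests were chosen with earlier results of these data known. Alternatives were other filters, lengths, count models and scalings, each library left out, and, chosen after seeing the data, lengths outside other TUs.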

Additional observations from a re-analysis of the deposited data

Results flagged for a closer look

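HCG11 was at 29.0 TPM in RNA-seq replicate 3, beside a median of 32.9 TPM over the 4 RNA-seq libraries. The gap to the nearest library was 0.842 of the whole range, above Dixon's critical value for 4 samples. Chance marks about 1 in 20 groups in this way, and 23 measures were looked at.

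The 38 members whose whole PRO-seq window lies inside another TU on the same strand had 1315 RNA-seq counts and no PRO-seq count. They thus entered no half-life comparison, though they are kept in the shares of members with counts. Of these members 11 had at least 20 RNA-seq counts.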

How the results depend on the processing

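The count of members below the median mRNA (76 of 81) lay between 70 (of 74) and 78 with library totals, either DESeq2 normalization, 500 bp removed, a 2-fold difference tested, RNA-seq replicates 1 and 3 and replicates 2 and 4 summed, or lengths outside other TUs (an alternative chosen after seeing the data). No alternative called a member above. The count was 166 of 216 at 1 summed count in each assay, 97 of 98 at 10, 53 of 56 over 20 and 2 TPM, 58 of 63 without overlap with another annotated gene and 48 of 49 with at least 1000 bp left, since these change how many members are tested. With each library left out it lay between 71 and 78, the members with an estimate between 76 and 84, those with counts in both assays between 192 and 213, and the median between -3.83 and -3.57. Counts in both assays fell to 98 members at 10 counts in each.

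The median log2 half-life (-3.75) moved to -4.33 at 10 counts in each assay, -3.29 with 500 bp removed and -3.33 with a pseudocount of 1 TPM, and reversed to 0.68 with CPM and no length, which by construction leaves the long spans of mRNAs in PRO-seq. ENSG00000260257 (-0.16) reversed to 0.32 with 500 bp removed, 0.50 at 1 summed count and 1.20 without PRO-seq replicate 2, was called below without PRO-seq replicate 1 (-0.83), and ENSG00000259865 to 0.44 with 500 bp removed, and the cause was not tested. In the other alternatives of named members, ENSG00000272335 and HCG11 lost their calls against a 2-fold difference, ENSG00000260912 without PRO-seq replicate 1 (-1.24), and LINC00896 at 1 summed count (-1.13) and without PRO-seq replicate 2 (-1.37).

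With the replicate block, 75 of 81 members were below. Replicates 1 minus 2 of RNA-seq and of PRO-seq correlated at -0.00685 over 9986 TUs, so no pairing by number was seen. This cannot exclude a pairing, since libraries from one flask need not share differences that would correlate. RNA-seq replicates 1 and 3, and 2 and 4, differed little beyond sampling noise (mean chi-square 1.12 per TU for each pair, against 1.72 to 2.10 for other pairs), and with each pair summed 75 of 81 were below. Depth limits the PRO-seq side, where 11 of the 81 members had fewer than 10 counts.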
